A study of Mus musculus with 2 samples.

Results

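Tyrosine and dual-specificity phosphatase genes were compared between the CD8+ and CD8- dendritic cells (DCs) of mouse spleen. The members were the genes with a single-gene probe set whose symbol starts with Ptpn or Dusp and a number, or with Ptpr and a letter. This gave 59 of the 18194 genes named on the array, and the brightest probe set of each gene stood for it. DCs had been expanded in C57BL/6 mice that carried B16 melanoma cells, a mouse tumour line, engineered to produce Flt3L, the growth factor of DC development. Spleens were taken 10 to 12 days after the injection, and DCs were enriched magnetically and sorted as CD3-, B220- and CD11c+ cells, either CD8a+ or CD8a-. Both populations shared the strain, the tumour and the Flt3L, and neither was stimulated afterwards. Each was measured on 1 Affymetrix array, and whether mice were pooled is not given in the sources used here. No value therefore has a replicate or an error, no test was possible, and a difference cannot be told apart from variation between mice, sorts or hybridisations.

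Protein tyrosine phosphatases remove phosphate from tyrosine and so oppose tyrosine kinases. The receptor types (Ptpr) span the membrane, and the best known in leukocytes is CD45, which keeps Src family kinases ready to signal. The non-receptor types (Ptpn) act in the cytosol, where Shp1, the product of Ptpn6, is recruited by inhibitory receptors with phosphorylated tyrosine motifs. Dual-specificity phosphatases (Dusp) also act on serine and threonine, and one group of them, the MAP kinase phosphatases, switches off ERK, JNK and p38.

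The values are log2 signals from RMA, and a gene counted as measured from a higher value of 3.85, the median of the whole table, called the floor here. Of the 18194 genes, 11404 were measured. The labels were checked against fixed markers. Cd8a was at 11.29 in CD8+ and 5.15 in CD8- DCs, all 7 measured CD8+ DC markers were on the CD8+ side, and all 6 measured CD8- DC markers were on the CD8- side. All 6 pan-DC markers were under 2-fold. The 4 T cell, 5 NK cell, 5 neutrophil, 3 erythroid and 5 melanoma markers with a probe set were at or below 4.90 on both arrays. Of these, 2 T cell, 1 NK cell, 1 erythroid and 1 melanoma marker still counted as measured.

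Of the 59 members, 40 were measured, 37 of them at or above the floor on both arrays. At a threshold of 2-fold, CD8- DCs had the higher value for 5 of the 40 (12.5%), against 5.97% of all measured genes. CD8+ DCs had it for 0 of the 40, against 3.55% of all measured genes. At 1.5-fold the counts were 8 in favour of CD8- DCs (11.5% of all measured genes) and 2 in favour of CD8+ DCs (8.49%). At 4-fold, Ptpro alone was left on the CD8- side, where 2.1% of all measured genes lay. The 5 were Ptpro, Ptpn6, Ptpn3, Ptpn12 and Dusp5, and each was above the floor on both arrays. The smallest of these differences was that of Dusp5, -1.05 on the log2 scale (CD8+ minus CD8-), and the nearest member under the threshold was Dusp22, at -0.92. Most members differed little, as did most measured genes: 30 of the 40 members and 9122 of the 11404 measured genes were under 1.5-fold. Of the 40 members, 19 were higher in CD8+ and 21 in CD8- DCs, and the median difference was -0.03. Over all measured genes, 5999 were higher in CD8+ and 5113 in CD8- DCs. The median over all measured genes was 0.03. The median size of the difference, without its sign, was 0.28 over the measured members and 0.25 over all measured genes. In bulk RNA, fewer cells of a type and less RNA per cell cannot be told apart.

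**Figure D1:**
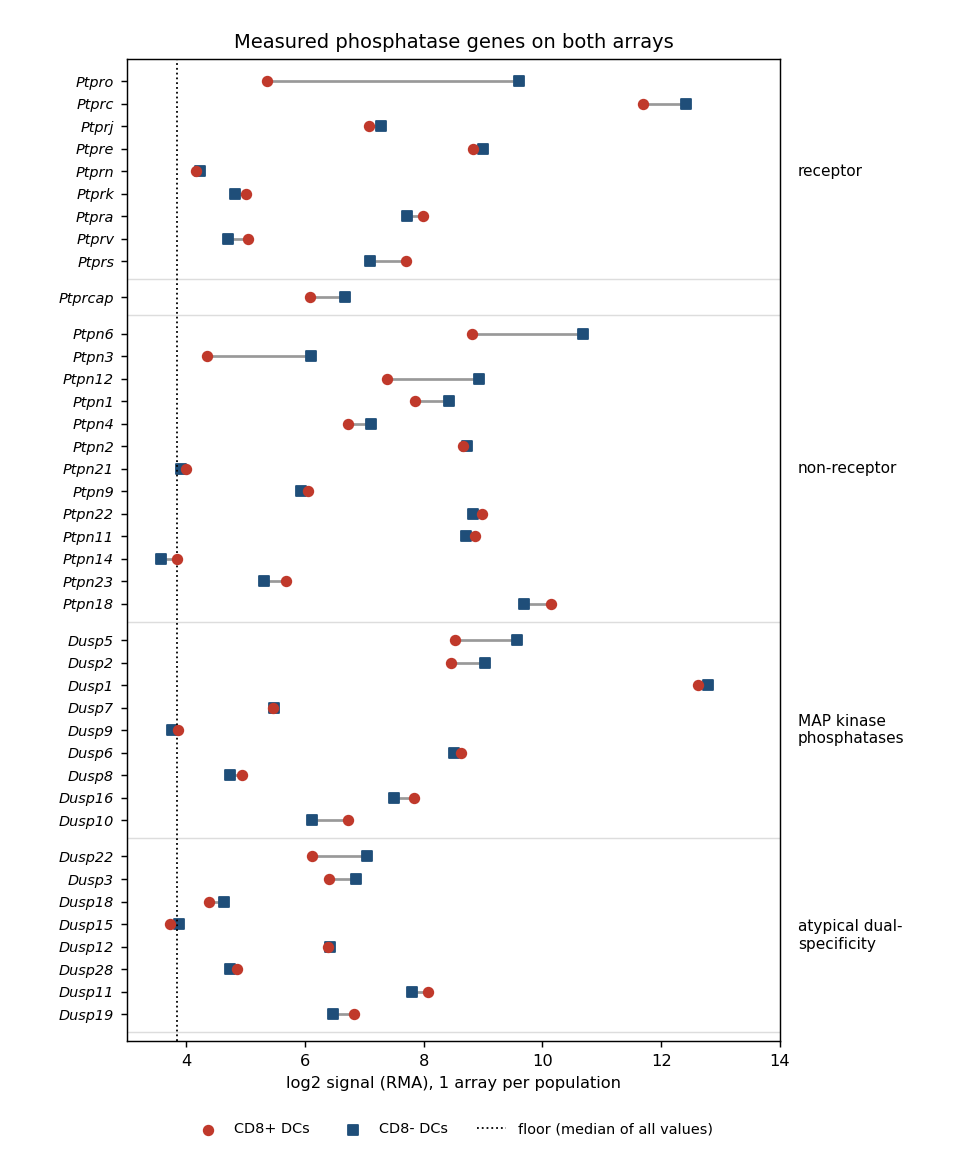
Log2 signal of the 40 measured phosphatase genes (x axis) in CD8+ DCs (red circles) and CD8- DCs (blue squares), 1 array each, grouped by class, with the floor of 3.85 dotted. The long lines of Ptpro, Ptpn6, Ptpn3 and Ptpn12 end in the CD8- value, and most other lines are short.

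Among receptor phosphatases, Ptpro stood out with the largest difference of any member. Ptpro encodes a receptor phosphatase first described in kidney podocytes, with a short form in macrophages and B cells. It was at 5.37 in CD8+ and 9.61 in CD8- DCs, or 19.0-fold higher in CD8- DCs. Its other probe set was at 3.89 and 8.42, a difference of -4.53 that goes the same way. Ranked by difference, Ptpro was at place 46 of 11404 measured genes from the CD8- end. Markers of monocytes and macrophages also differed: of 4 measured, Csf1r (6.40 in CD8+ and 10.56 in CD8- DCs) and Adgre1 (4.63 and 8.22) were over 2-fold higher in CD8- DCs. Lyz2 (10.69 and 10.11) and Vcam1 (5.52 and 4.66) were higher in CD8+ DCs, and Mertk and Spic were below the floor on both arrays. The probe sets of Csf1r spanned -4.17 to -1.82 and those of Vcam1 0.42 to 2.49. The 6 markers with a probe set summed to a linear signal of 1829 in CD8+ DCs and of 2961 in CD8- DCs. Lyz2 made up most of the CD8+ sum, so the sums do not reflect the differences of Csf1r (17.9-fold) and Adgre1 (12.1-fold). The part of such cells in the Ptpro difference was not tested.

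The other 8 measured receptor phosphatases were under 2-fold. Of all measured genes, 5.97% were past it on the CD8- side and 3.55% on the CD8+ side. Ptprc encodes CD45, and B220, which the sort excluded, is an isoform of it. Its brightest probe set was at 11.69 in CD8+ and 12.42 in CD8- DCs, and its second was at 7.23 and 7.22. The difference of 1.66-fold in favour of CD8- DCs thus appeared on 1 of its 2 probe sets. Ptprcap, which encodes the CD45-associated protein and is a member by its symbol though not a phosphatase, was at 6.08 and 6.68, or 1.52-fold higher in CD8- DCs.

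In the other direction, Ptprs, which encodes a receptor for proteoglycans, was at 7.69 in CD8+ and 7.10 in CD8- DCs. All 3 of its measured probe sets were higher in CD8+ DCs, by 0.26 to 0.59. Of 5 plasmacytoid DC markers, Ccr9 (8.03 and 5.94) was higher in CD8+ DCs and Tcf4 (5.47 and 7.55) in CD8- DCs, while Siglech was at 3.71 and 4.04. The 5, with Bst2 at 7.37 and 7.80, summed to a linear signal of 501.8 in CD8+ DCs and of 502.7 in CD8- DCs. These near-equal sums combine markers that differed in opposite directions, so they do not show that plasmacytoid DC content was equal. Ptpra, whose product can activate Src family kinases by removing their inhibitory phosphate, was at 7.996 and 7.72. The related Ptpre was at 8.82 and 8.995. Ptprj, which encodes CD148, was at 7.08 and 7.28, but its second probe set had the opposite sign (5.01 and 4.65). Ptprk (5.01 and 4.82) and Ptprn (4.17 and 4.24), whose product is a catalytically inactive protein of secretory granules, were dim and close. Ptprv, listed by RefSeq as a transcribed pseudogene, was at 5.04 and 4.70. Another 9 receptor members, among them Ptprd, Ptprf and Ptprz1, were below the floor on both arrays.

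Non-receptor phosphatases held 3 of the 5 members past 2-fold, out of 13 measured, and 7 of the 13 were higher in CD8+ DCs by smaller amounts. Of all 11404 measured genes, 5.97% were past 2-fold on the CD8- side, and 5999 were higher in CD8+ DCs by any amount. These counts rest on few members and do not set the class apart. Ptpn6, the gene of Shp1, was at 8.81 in CD8+ and 10.68 in CD8- DCs, or 3.66-fold higher in CD8- DCs. Its second probe set gave nearly the same difference (-1.87 and -1.85 for the pair). Ptpn11 encodes Shp2, the close relative of Shp1 that mostly promotes signalling downstream of growth factor receptors. It was at 8.87 and 8.71, and its 3 measured probe sets were all slightly higher in CD8+ DCs, by 0.16 to 0.59. Ptpn6 thus stood past 2-fold while its relative was close to equal on both arrays, and the contrast between the 2 genes was not tested.

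Ptpn12 encodes PTP-PEST, which acts on proteins of cell adhesion and of the cytoskeleton. It was at 7.38 in CD8+ and 8.94 in CD8- DCs, or 2.94-fold higher in CD8- DCs. It was the member past 2-fold with the most measured probe sets, and all 4 were higher in CD8- DCs, with log2 differences of -1.79 to -1.36. Ptpn3, which encodes a phosphatase with a FERM domain and a PDZ domain, was at 4.35 and 6.10, or 3.36-fold higher in CD8- DCs. It was measured by 1 probe set, and its CD8+ value lay close to the floor, where background compresses a difference. Its nearest relative Ptpn4 was at 6.73 and 7.12, under 1.5-fold.

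**Figure D2:**
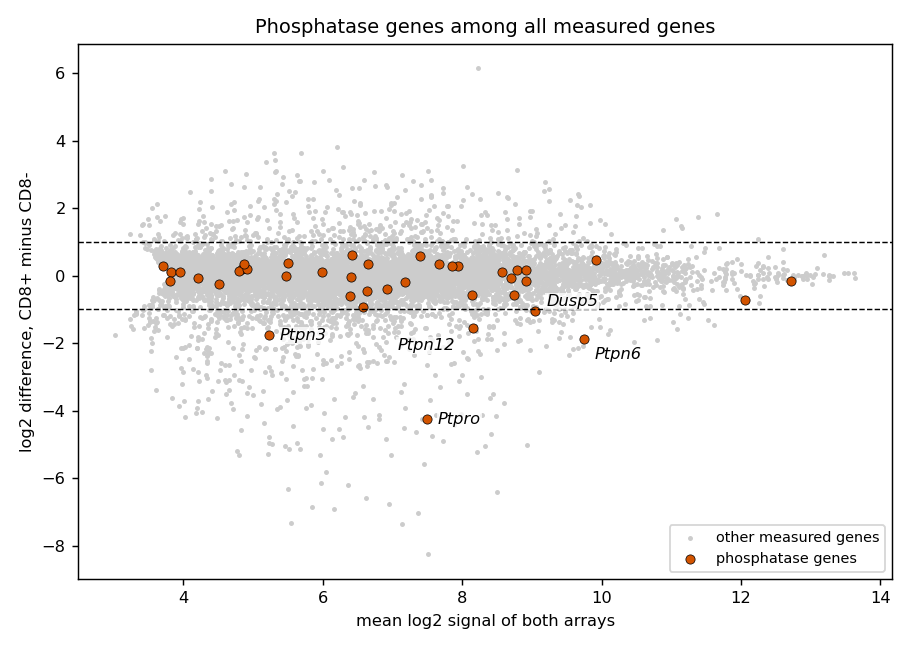
Log2 difference (CD8+ minus CD8-, y axis) against mean log2 signal (x axis) for the 11404 measured genes, with the 40 phosphatase genes in orange and dashed lines at 2-fold. The 5 named members lie below the lower line, and no member lies above the upper line.

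The other non-receptor genes lay closer together. Ptpn1 encodes PTP1B, which dephosphorylates the insulin receptor and Janus kinases, and it was at 7.86 in CD8+ and 8.43 in CD8- DCs, or 1.49-fold higher in CD8- DCs on its brightest probe set. Its second probe set differed by -0.39. Ptpn2, whose product also acts on Janus kinases and STAT factors, was at 8.67 and 8.74. Ptpn22, the lymphoid phosphatase that restrains Src family kinases together with Csk, was at 8.99 and 8.83. Ptpn18 was at 10.15 and 9.69, or 1.38-fold higher in CD8+ DCs, the largest difference in that direction among non-receptor members. Ptpn23, which encodes a protein of endosomal sorting, was at 5.68 and 5.31, and Ptpn9 was at 6.05 and 5.94. Ptpn21 (3.999 and 3.91) and Ptpn14 (3.85 and 3.57) were close to the floor, and Ptpn5, Ptpn13 and Ptpn20 were below it on both arrays.

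Of the 10 MAP kinase phosphatases, 9 were measured and 1 passed 2-fold, on the CD8- side, where 5.97% of all measured genes lay. With so few members, this count does not set the class apart. Dusp5, which encodes a nuclear phosphatase selective for ERK, was at 8.52 in CD8+ and 9.58 in CD8- DCs. It was 2.07-fold higher in CD8- DCs on its 1 probe set, just past the threshold. Dusp2, another nuclear, inducible phosphatase, was at 8.46 and 9.03, or 1.48-fold higher in CD8- DCs. Dusp6, the cytoplasmic ERK phosphatase, was at 8.62 and 8.51. Dusp6 was thus nearly equal on both arrays. Its difference of 0.11, on 1 probe set, is smaller than the pooled SD of 0.22 between probe sets of a member. The sign for Dusp6 is therefore not settled, and the same holds for other members below that SD, such as Dusp1 and Ptpn22. That SD does not measure variation between mice or sorts, so a larger difference is not settled by it either.

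Dusp1, the inducible phosphatase of p38, JNK and ERK, was at 12.63 in CD8+ and 12.79 in CD8- DCs. Saturation could compress a difference at such a signal and was not tested. Dusp10, which acts on p38 and JNK, was at 6.73 and 6.12, or 1.53-fold higher in CD8+ DCs, the largest difference in favour of CD8+ DCs among measured members. Its other probe set was below the floor on both arrays. Dusp16, also directed at JNK and p38, was at 7.84 and 7.496, while its second probe set had the opposite sign (5.75 and 6.17). Dusp7 (5.47 and 5.49), Dusp8 (4.94 and 4.74) and Dusp9 (3.87 and 3.77) were nearly equal, and Dusp4 was below the floor on both arrays.

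The atypical dual-specificity phosphatases lack the MAP kinase docking domain, and none of their 8 measured members reached 2-fold. Only 5.97% of all measured genes did so on the CD8- side and 3.55% on the CD8+ side. With so few members, this count does not set the class apart. Dusp22, whose product acts in JNK and antigen receptor signalling, was at 6.12 in CD8+ and 7.04 in CD8- DCs, or 1.89-fold higher in CD8- DCs on its 1 probe set. Dusp3, which encodes the small phosphatase VHR, was at 6.40 and 6.86, and its 3 probe sets had log2 differences of -0.48 to -0.26. Dusp19 was at 6.82 and 6.47, and both of its measured probe sets were higher in CD8+ DCs. Dusp11, whose product acts on RNA, was at 8.08 and 7.80, and Dusp12 was at 6.39 and 6.42. Dusp18 (4.38 and 4.64), Dusp28 (4.85 and 4.73) and Dusp15 (3.74 and 3.88) were dim. The other 6, among them Dusp14 and Dusp26, were below the floor on both arrays.

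Probe sets of the same gene gave a measure of technical spread. Of the 40 measured members, 20 had several measured probe sets, 46 in all, and their differences had a pooled SD within genes of 0.22, against 0.30 over all measured genes. In 15 of the 20 genes all measured probe sets had the same sign. The 5 with both signs were Ptprc, Ptprj, Ptpra, Dusp11 and Dusp16, and each was under 2-fold. In none of the 20 did the differences of the probe sets span more than 1 on the log2 scale. This spread does not measure variation between mice or sorts.

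**Figure D3:**
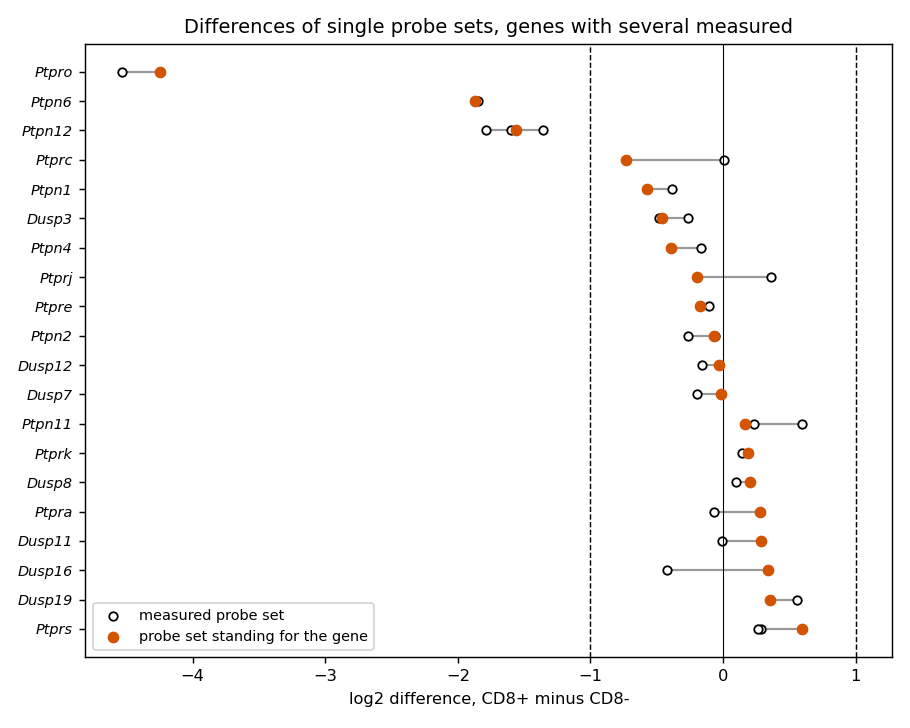
Log2 difference (CD8+ minus CD8-, x axis) of each measured probe set for the 20 phosphatase genes with several, with the probe set that stood for the gene in orange and dashed lines at 2-fold. Every probe set of Ptpro, Ptpn6 and Ptpn12 lies past 2-fold, and every probe set of the other 17 genes lies within it.

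The promoters of members past 2-fold are shown because these genes differed in the same direction. They are the 250 bases before the start listed by RefSeq (GRCm38.p6), 5′ to 3′ on the gene's strand, for the 4 members matched by symbol. Ptpn12, the remaining member past 2-fold, had no window and is left out. Capitals mark matches, on either strand, to the motifs searched: the PU.1 core GAGGAA, the Sp1 box GGGCGG, the AP-1 site TGANTCA, the cyclic AMP response element TGACGTCA and the CArG box bound by serum response factor. The CArG box was added after the Dusp5 sequence had been seen. The Ptpn3 window lies inside the gene as RefSeq draws it, so that gene has a start further upstream. Which start DCs use was not measured, and no binding data were used.
Ptpro, chr6:137252049-137252298, + strand: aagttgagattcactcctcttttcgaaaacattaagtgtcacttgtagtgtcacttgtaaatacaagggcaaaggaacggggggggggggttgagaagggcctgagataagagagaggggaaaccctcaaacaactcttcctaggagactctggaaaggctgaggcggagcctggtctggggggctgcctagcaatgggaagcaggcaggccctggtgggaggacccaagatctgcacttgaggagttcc
Ptpn6, chr6:124738710-124738959, - strand: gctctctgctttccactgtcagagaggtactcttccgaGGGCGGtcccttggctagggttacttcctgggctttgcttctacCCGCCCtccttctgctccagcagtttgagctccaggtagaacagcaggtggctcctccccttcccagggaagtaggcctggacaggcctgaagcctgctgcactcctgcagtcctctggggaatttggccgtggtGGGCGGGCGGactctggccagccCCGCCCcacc
Ptpn3, chr4:57301838-57302087, - strand: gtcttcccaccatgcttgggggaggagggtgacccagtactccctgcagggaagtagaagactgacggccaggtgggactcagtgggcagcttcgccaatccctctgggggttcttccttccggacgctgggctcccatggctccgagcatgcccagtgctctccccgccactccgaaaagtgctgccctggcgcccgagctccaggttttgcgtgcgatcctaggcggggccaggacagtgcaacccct
Dusp5, chr19:53528895-53529144, + strand: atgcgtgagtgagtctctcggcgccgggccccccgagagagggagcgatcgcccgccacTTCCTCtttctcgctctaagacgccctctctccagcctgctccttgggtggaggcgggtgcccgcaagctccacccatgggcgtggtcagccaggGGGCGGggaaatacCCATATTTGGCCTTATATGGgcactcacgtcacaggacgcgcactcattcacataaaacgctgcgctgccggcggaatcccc

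No motif searched was present in all 4 windows. Ptpn6 held 5 Sp1 boxes, 2 of which overlap, in a window with 63.2% G and C. Dusp5 held 1 PU.1 core, 1 Sp1 box and 2 CArG boxes that follow each other directly, and its window had 64.0% G and C. The Ptpro and Ptpn3 windows held none of the motifs, at 53.6% and 64.8% G and C. Of the 32851 windows of the same length in the RefSeq table, 32.7% held a Sp1 box, 23.2% a PU.1 core and 1.47% a CArG box. An AP-1 site was found in 6.75% and a cyclic AMP response element in 1.55%. A match describes letters in a window and not a site in use.

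Partners and substrates of the phosphatases were described from 6 lists of 82 genes, 60 of them measured. At 2-fold, 17 of the 60 were higher in CD8- DCs and 2 had their higher value in CD8+ DCs, beside 5.97% and 3.55% of all measured genes. Of 11 measured Src family, Csk and Syk kinases and their relatives, 4 passed 2-fold, each with its higher value in CD8- DCs (list median -0.53). Fgr, a Src family kinase of myeloid cells, was at 5.22 in CD8+ and 9.14 in CD8- DCs, or 15.1-fold higher. Ptk2b (2.63-fold), Tec (2.55-fold) and Syk (2.05-fold), whose kinase binds phosphorylated activating receptors, were the others. The measured probe sets of Ptk2b disagreed in size, at -1.39 and -0.41, and 3 of these kinases passed 2-fold as the mean over their probe sets, without Ptk2b. Csk, the kinase that holds Src family kinases inactive, was at 8.09 and 8.62.

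The list of inhibitory receptors and adaptors that recruit Shp1 or Shp2 had the lowest median of the 6, -1.34 over 18 measured genes. Past 2-fold, 11 of them favoured CD8- DCs and 1 favoured CD8+ DCs, beside 5.97% and 3.55% of all measured genes. Cd22 was at 4.41 in CD8+ and 8.89 in CD8- DCs, a 22.3-fold difference. Cd300lf (19.1-fold), Sirpa (18.4-fold), Cd72 (18.4-fold), Clec4a2 (at least 16.2-fold, with the floor in place of its CD8+ value), Lair1 (14.2-fold) and Cd300a (12.9-fold) followed. The probe sets of Cd300a disagreed in size, at -3.69 and -0.83, as did those of Clec4a2, at -5.28 and -1.01. Those of Sirpa spanned -5.92 to -4.20. Ceacam1, under 2-fold on its brightest probe set, had 5 measured probe sets at -2.52 to -0.16. Those of Gab2 had both signs, at -0.31 to 0.37. With all probe sets averaged, 12 genes of the list passed 2-fold on the CD8- side. Siglecg (3.65-fold), Pecam1 (2.88-fold), Siglece (2.24-fold) and Pirb (2.06-fold) were also higher in CD8- DCs. Btla, an inhibitory receptor of lymphocytes and DCs, went the other way, at 11.56 in CD8+ and 10.21 in CD8- DCs, or 2.54-fold. Inpp5d, which the list also holds, encodes Ship1, a lipid phosphatase of the same pathways and not a receptor. Inpp5d was at 10.31 in CD8+ and 9.72 in CD8- DCs. Sirpa is itself a marker of CD8- DCs, and earlier results had shown Sirpa, Clec4a2 and others of this list to differ, so the list is no independent evidence of direction.

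Cd22 and Cd72 are also genes of B cells, which the B220 gate should remove. Of the 5 B cell markers with a probe set, Cd79a (3.55 in CD8+ and 3.35 in CD8- DCs), Pax5 (3.79 on both arrays) and Ebf1 (2.70 and 2.53) were below the floor on both arrays. Cd79b (3.28 and 6.59) and Blnk (3.15 and 4.58) were above it in CD8- DCs. The summed linear signal of all 5 B cell markers came to 50.7 in CD8+ DCs and to 150.3 in CD8- DCs, and the part of B cells in these differences was not tested.

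The remaining lists differed less. Their counts stand beside 5.97% of all measured genes past 2-fold on the CD8- side and 3.55% on the CD8+ side. Of 6 measured MAP kinases, Mapk11, which encodes p38β, favoured CD8- DCs by at least 2.89-fold (3.62 in CD8+, below the floor, and 5.38 in CD8- DCs). That fold holds for its brightest probe set, and the other differed by -0.74, under 2-fold. Mapk14, the gene of p38α, was at 9.71 and 10.16, Mapk9 at 8.37 and 7.95 and Mapk8 at 6.59 and 6.87. The 6 measured probe sets of Mapk14 had both signs, at -0.59 to 0.16. None of the 8 measured JAK and STAT genes reached 2-fold. Of the 8, 7 were higher in CD8- DCs (median -0.42), beside 5113 of all 11404 measured genes (median over all 0.03). Stat5b (6.21 and 7.08), Tyk2 (8.18 and 7.33), Jak3 (4.91 and 5.76) and Stat5a (6.61 and 7.40) differed most. The probe sets of Tyk2 spanned 0.18 to 0.85 and those of Stat5b -0.88 to -0.35.

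Of 7 other measured genes of ERK feedback and response, none reached 2-fold on its brightest probe set (median -0.09). Spred1, an inhibitor of the ERK pathway, was just under it, at 6.44 in CD8+ and 7.42 in CD8- DCs, followed by Etv4 (4.39 and 3.69), Etv5 (3.78 and 4.44) and Ier3 (7.10 and 6.63). The second measured probe set of Etv5 differed by -1.995, past 2-fold, and the probe sets of Spred1 spanned -1.43 to -0.57. Egr1, an early target of ERK, was at 11.08 and 10.84. Of 10 other partners, Pag1, the membrane adaptor that anchors Csk, was 6.38-fold higher in CD8- DCs (4.87 and 7.54), though its measured probe sets spanned -2.67 to 0.51. Cblb, a ubiquitin ligase that limits tyrosine kinase signalling, was 2.83-fold higher in CD8+ DCs (8.40 and 6.90), with probe sets at 0.21 to 1.503. Neither Pag1 nor Cblb reached 2-fold as the mean over its probe sets. Tyrobp, the adaptor DAP12, was at 11.04 and 11.89. Pstpip1, a cytoskeletal partner of PTP-PEST, was at 8.02 and 7.72 on 1 probe set, and so did not show the difference of Ptpn12.

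**Figure D4:**
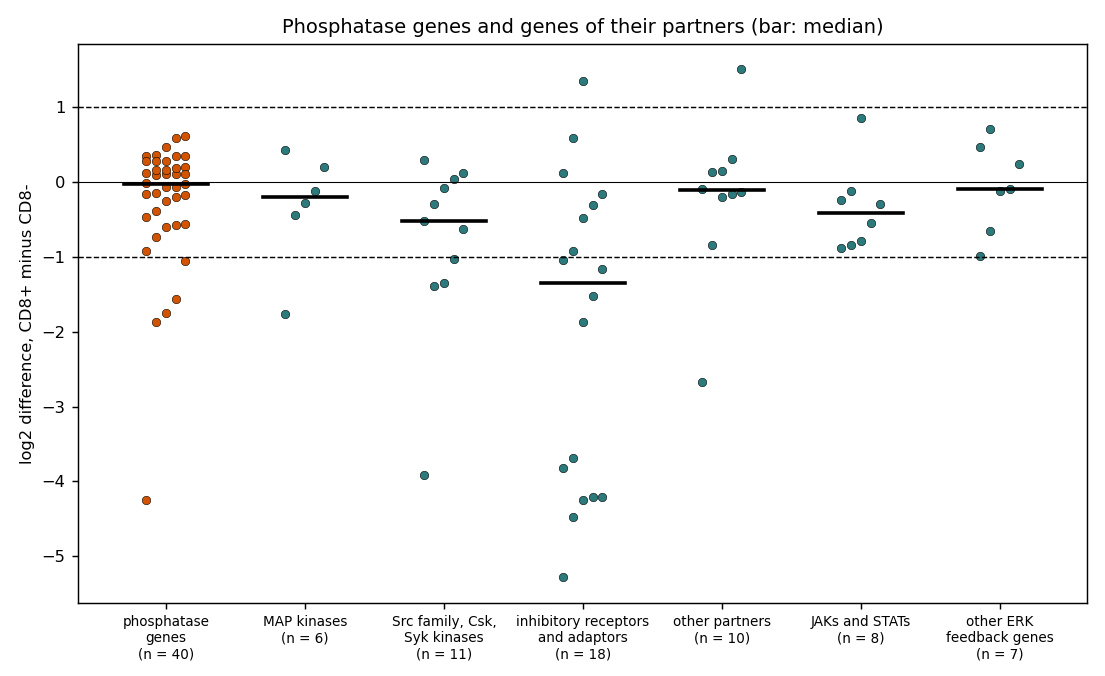
Log2 difference (CD8+ minus CD8-, y axis) of the measured phosphatase genes and of the 6 lists of partners and substrates (x axis, n measured genes each), 1 point per gene, bars at the medians and dashed lines at 2-fold. The inhibitory receptor list has its median at -1.34, and the phosphatase genes have theirs at -0.03 with Ptpro far below.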

How the data were processed

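Total RNA of each population was labelled as biotinylated cRNA and hybridised to an Affymetrix array. The deposited table holds log2 signal values for 45101 probe sets, made by the authors with RMA, per the submitters' processing notes. The sources used here give neither the version nor which arrays were normalised as a set. RMA quantile-normalises arrays, which hides any shift common to most genes. The column medians were 3.86 (CD8+) and 3.83 (CD8-). A total of 34958 probe sets had 1 gene symbol in the platform annotation, 932 several and 9211 none. The latter groups stayed out. Of the single-gene probe sets, 34754 had an identifier in the RefSeq gene table of GRCm38.p6. Members were given by 129 probe sets. With 1 array per population no test was made, and genes were described by size, CD8+ minus CD8-. Where a dimmer value lay below the floor, it was replaced by the floor and the fold given as "at least". Named were the measured members and, per list, the genes past 2-fold, or the 4 with the largest differences where fewer passed. Beside cell type markers, Csk, Inpp5d, Egr1, Ceacam1 and Gab2 were named outside this rule, after their values were seen. Promoter windows came from RefSeq (GRCm38.p6), and 47 members had one. The members and lists were chosen with earlier results of these data known. Alternatives were other normalisations, floors, probe set rules and thresholds. Software was Python 3.11.15, pandas 2.3.3, numpy 2.4.6, statsmodels 0.14.6 and matplotlib 3.10.9. The calculation was tested on simulated data.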

Additional observations from a re-analysis of the deposited data

How the results depend on the processing

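Ptpro, Ptpn6, Ptpn3, Ptpn12 and Dusp5 stayed at least 2-fold higher in CD8- DCs under all 7 alternatives of normalisation, floor and probe set choice, with log2 differences of -4.39 to -4.23 for Ptpro, -1.91 to -1.86 for Ptpn6, -1.81 to -1.75 for Ptpn3, -1.59 to -1.56 for Ptpn12 and -1.08 to -1.05 for Dusp5. No member was 2-fold higher in CD8+ DCs under any of them. The changes of floor and the removal of probe sets prone to cross-hybridisation left the differences of these genes exactly as they were. For Ptpn3 and Dusp5, with 1 probe set each, averaging changed nothing either. Those alternatives therefore put no strain on these calls, and only the remaining ones could move them. At 1.5-fold, 8 members favoured CD8- DCs and 2 favoured CD8+ DCs; at 4-fold, 1 member, Ptpro, was higher in CD8- DCs. The member median stayed within -0.17 (floor at the 75th percentile) and 0.09 (no floor), so its sign is not settled. Averaging all probe sets moved Ptprc to -0.36 and Ptprs to 0.29. In the 6 related lists, the count higher in CD8+ DCs was 1 with all probe sets averaged, 5 at 1.5-fold and 0 at 4-fold, and that higher in CD8- DCs was 9 at 4-fold. Of the ERK feedback list, 1 gene passed 2-fold in CD8- DCs with columns centred, and 1 without probe sets prone to cross-hybridisation; with the stricter floor 0 MAP kinases did. The median of the inhibitory receptor list was -3.69 with the stricter floor and -1.04 with none. No paired analysis was possible because each population has 1 array. With 1 array each, no value has a known precision, and dim members such as Ptpn14, Dusp9 and Dusp15 lie at the floor.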

Other observations

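The protein-coding genes next to the members past 2-fold, by their order in the RefSeq gene table of GRCm38.p6, differed less than those members where they were measured. Ptpro lies between Rerg, below the floor on both arrays, and Eps8, at 8.76 in CD8+ and 8.62 in CD8- DCs. Ptpn6 lies between Phb2 (8.74 and 8.61) and Grcc10 (10.09 and 9.77), both slightly higher in CD8+ DCs, against the direction of Ptpn6. Gsap, next to Ptpn12, was at 8.21 and 8.09. Dusp5 lies between Smndc1 (8.17 and 8.10) and Smc3 (7.24 and 7.88), of which Smc3 differed in the direction of Dusp5 by less than 2-fold.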
